A study of Mus musculus with 6 samples.

Results

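The genes described here encode the Polycomb repressive complexes and the demethylases that oppose them, and 33 of the 55492 genes in the expression table were chosen by symbol from a list of known subunits, not by their measured values. They comprise 6 core and 6 accessory subunits of Polycomb repressive complex 2 (PRC2), 2 demethylases of histone H3 lysine 27, 7 subunits of canonical Polycomb repressive complex 1 (PRC1), 8 PCGF and RING subunits, and 4 further subunits of variant PRC1. RNA was measured in brain cells carrying the O4 antigen, a surface lipid of late progenitors and immature oligodendrocytes, from 3 WT and 3 Npc1-/- mice at postnatal day 16 (P16), with no treatment and 1 library per mouse. The Npc1-/- mice carry the Npc1nih null allele in every cell of the body, so the O4+ cells matured in a brain in which all cell types lacked NPC1, a late endosomal protein that exports cholesterol. WT and Npc1-/- mice were littermate offspring of heterozygous BALB/cJ and C57BL6/J parents, and O4+ cells were pulled from dissociated whole brains with antibody-coated magnetic beads.

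PRC2 adds methyl groups to lysine 27 of histone H3 through its catalytic subunits EZH1 or EZH2, and the trimethylated mark (H3K27me3) is found at silent developmental genes. Canonical PRC1 binds that mark through a CBX protein, and the RING1 or RNF2 subunit of every PRC1 ubiquitylates histone H2A, while the PCGF subunit sets which variant of PRC1 is formed. KDM6A and KDM6B remove H3K27 methylation. In the oligodendrocyte lineage EZH2 is known to be high in dividing progenitors and PRC2 to keep genes of other lineages silent. The comparison asks whether loss of NPC1 goes with a different supply of mRNA for the enzymes and adaptors that write, read and erase the mark.

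The regions just before the start sites of the catalytic pairs of both complexes are shown because RING1 and RNF2 are the pair, of 10 compared, whose balance of mRNAs differed most between the genotypes, with EZH1 and EZH2 as the pair of PRC2. Each line gives bases free of annotated exons before the RefSeq start site on GRCm38.p6, all on the minus strand, with every CG dinucleotide in capitals.
Ring1, chr17:34024681-34024830: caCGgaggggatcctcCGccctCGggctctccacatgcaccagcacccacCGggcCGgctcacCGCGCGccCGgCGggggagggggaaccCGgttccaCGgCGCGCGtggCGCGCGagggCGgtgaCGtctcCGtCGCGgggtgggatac
Rnf2, chr1:151500992-151501141: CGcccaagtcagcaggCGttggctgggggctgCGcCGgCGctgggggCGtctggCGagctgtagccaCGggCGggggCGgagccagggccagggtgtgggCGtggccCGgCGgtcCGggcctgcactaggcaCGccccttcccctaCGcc
Ezh1, chr11:101226464-101226613: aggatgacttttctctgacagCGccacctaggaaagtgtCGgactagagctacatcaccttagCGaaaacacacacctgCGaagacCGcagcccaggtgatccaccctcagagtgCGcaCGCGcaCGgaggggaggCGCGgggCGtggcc
Ezh2, chr6:47595059-47595183: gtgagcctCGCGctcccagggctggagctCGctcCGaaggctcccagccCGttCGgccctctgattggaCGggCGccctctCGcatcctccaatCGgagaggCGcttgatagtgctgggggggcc
The first 3 stretches are the 150 bases directly before the start, and the Ezh2 stretch is the 125 bases that lie 29 to 153 bases before its RefSeq start. GENCODE places the start of Ezh2 311 bases further upstream, with an exon in the window, so the Ezh2 stretch lies inside the gene as GENCODE annotates it. They hold 23 CG dinucleotides for Ring1, 16 for Rnf2, 12 for Ezh1 and 11 for Ezh2. RefSeq promoter windows were matched for 27 of the 33 genes, and in the 250 bases before the start these 27 held a median of 21 CG dinucleotides, against 6 over all 32851 windows. At least 12 CG dinucleotides were present in 24 of the 27, against 33.5% of all windows, so the group was rich in CG before its start sites. The median GC content of these bases was 66% in the 27 windows and 52.4% in all windows. A match to the E2F motif, searched as TTTCCCGC or TTTGGCGC on both strands, was present in 2 of the 27 windows (Suz12 and Phf19), against 1.2998% of all windows.

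Depth was inferred from the spacing of low FPKM values and lay between 40500000 and 50000000 fragments per library. Levels are given below as scaled TPM, the deposited TPM (transcript abundance relative to the total of a sample) divided by a size factor per sample, a unit that is already per transcript length and so can be compared between genes. Npc1 itself was at 41.1, 45.5 and 43.9 scaled TPM in the WT mice and at 3.72, 5.17 and 4.35 in the Npc1-/- mice (log2 fold change -3.17, adjusted p = 0.000398, limma with Benjamini-Hochberg adjustment), which matched the labels. All 12 oligodendrocyte marker genes were measured, none was at 0, and their summed level was 176841 to 249458 scaled TPM in WT and 223744 to 440519 in Npc1-/-. Most of that sum was Mbp, at 145087 to 201807 in WT and 183641 to 359525 in Npc1-/- (log2 fold change 0.57, limma adjusted p = 0.765). Of the 12 genes, 2 (Cnp and Enpp6) had a log2 fold change below 0, against 49% of all genes, and none was called. Markers of other cells were present too: the summed level of 6 microglial genes was 138 to 222 in WT and 61.2 to 113 in Npc1-/-, and that of 7 endothelial and mural genes was 976 to 1340 and 597 to 727, with no gene of either list at 0. Of these, 6 of 6 microglial genes (Aif1 at -0.0070) and 7 of 7 endothelial and mural genes had a log2 fold change below 0, against 49% of all genes, and 1 (Tmem119) was called lower, against 0.413%. Without Npc1-/- replicate 3, 3 microglial and 5 endothelial and mural genes were called lower, against 2.43% of all genes. The sum of 10 neuronal genes was 150.3 to 224 in WT and 208 to 288 in Npc1-/-. Of the 10, 9 had a log2 fold change above 0, all but Camk2a, and 2 (Nefl and Nefm) were called higher, against 0.4% of all genes. The sum of 6 astrocyte genes was 574 to 618 and 404 to 793. Of the 6, 5 had a log2 fold change below 0, and 4 were below WT without overlap, against 14.2% of all genes. The other, Gfap, went the opposite way, with all 3 Npc1-/- mice above WT (log2 fold change 1.01, limma adjusted p = 0.108). None of the 6 astrocyte genes was called. Npc1-/- replicate 3 stood apart, although it had the largest inferred depth (50000000 fragments). It had the smallest size factor (0.727, against 0.855 to 1.295), the lowest summed level of 6 progenitor genes (345, against 471 to 667), the Y-linked genes Ddx3y, Kdm5d and Eif2s3y listed at 0, and Xist at 21.4 scaled TPM, whereas the other 5 libraries had Xist at or near 0 and expressed the Y-linked genes. In bulk RNA, fewer cells of a type and less RNA per cell cannot be told apart.

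None of the 32 Polycomb and demethylase genes tested passed an adjusted p below 0.05 (limma, Benjamini-Hochberg over the 15245 genes tested), where 0.813% of all genes were called, 0.4% higher and 0.413% lower in Npc1-/-. At that share a count of 0 among 32 genes does not set them apart from other genes. Phf19 was under the filter of a mean of 0.5 TPM and was not tested. Before adjustment, p was below 0.05 for 2 genes of 32 (6.25%), Pcgf5 lower and Ring1 higher in Npc1-/-, against 22.2% of all genes tested. Without Npc1-/- replicate 3 it was 5 genes (Aebp2, Phf1, Cbx7, Pcgf5 and Ring1), against 21.6%. The values of the 2 groups did not overlap for 4 of 32 genes (12.5%), against 27.5% of all genes: Ring1 was above WT, and Pcgf5, Pcgf3 and Rybp were below it. This count was 9 without Npc1-/- replicate 3, 8 without Npc1-/- replicate 1 and 7 without WT replicate 1, where the share over all genes was 40.7%, 42.9% and 34.2%. On the deposited TPM without size factors it was 8, against 28.2% of all genes. The log2 fold change was below 0 for 22 of the 32, with a median of -0.06, against 49% and 0.01 over all genes, and it ran from -0.60 for Pcgf5 to 0.49 for Ring1.

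**Figure D1:**
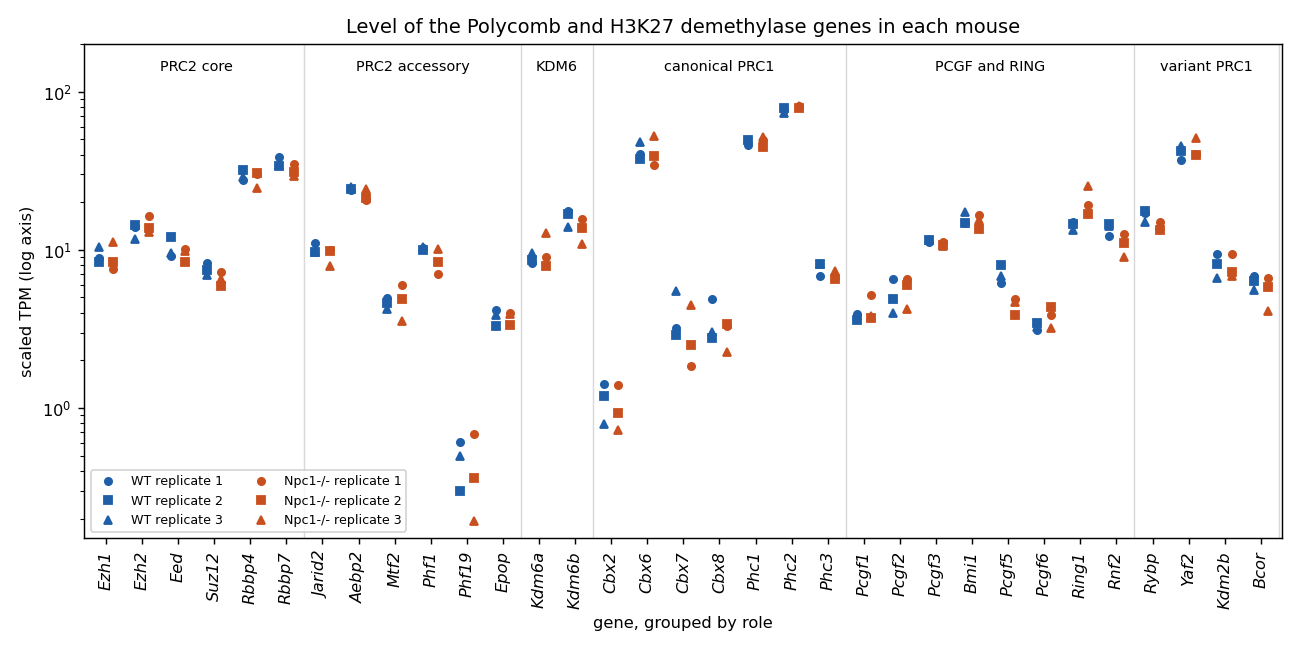
Scaled TPM (log axis) of the 33 genes in each of the 3 WT (blue) and 3 Npc1-/- (orange) mice, 1 point per mouse, grouped by role. Phc2 was the most abundant and Phf19 the least, and for most genes the points of the 2 genotypes cover the same range.

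The precision of these 3 against 3 comparisons limits what they can show. The 95% confidence interval of the fold change lay within 2-fold in either direction for 31 of 32 genes, Cbx7 being the exception, and within 1.5-fold for 22. For 24 genes the log2 fold change itself was smaller than 0.2 in size. Standard errors of the log2 fold change ran from 0.077 for Phc2 to 0.32 for Cbx7. The coefficient of variation between mice was larger in Npc1-/- than in WT for 24 of the 32 genes, with a median of 14.98% and 9.14%. The summed level of all 33 genes was 509 to 517 scaled TPM in WT and 479 to 520 in Npc1-/-, so the groups overlapped in total as well.

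**Figure D2:**
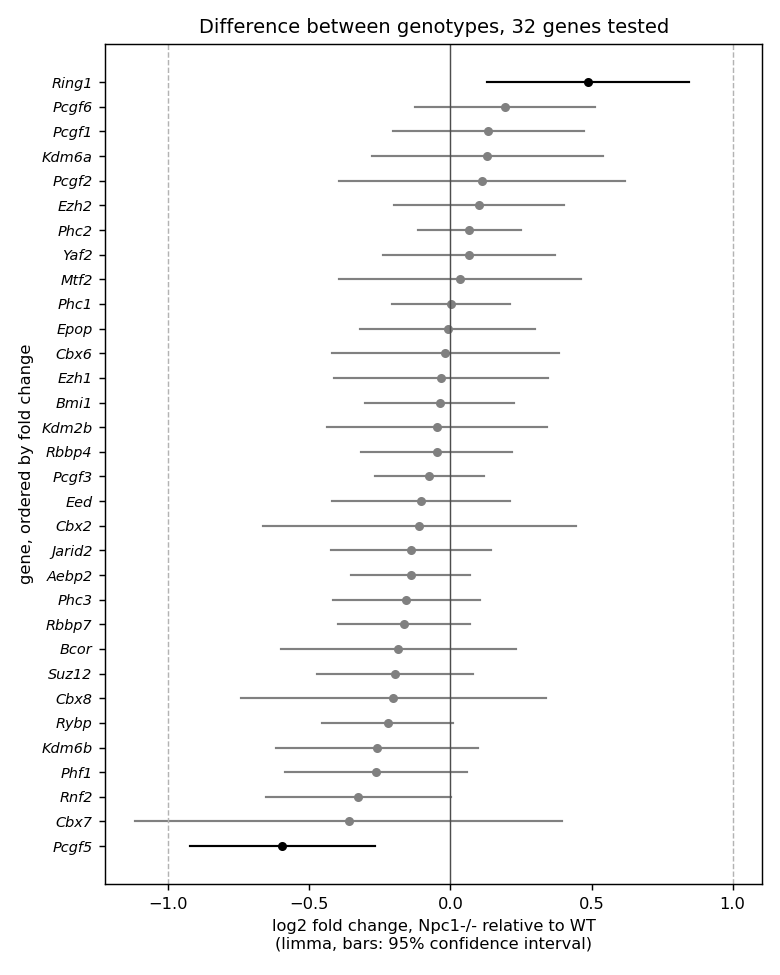
Log2 fold change of each tested gene in Npc1-/- relative to WT (points) with its 95% confidence interval from limma (bars), black where the unadjusted p was below 0.05 and grey otherwise, with dashed lines at a 2-fold difference. The intervals of Pcgf5 and Ring1 exclude 0, and the interval of Cbx7 is the only one that crosses a dashed line.

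Among the core subunits of PRC2, both catalytic genes were expressed at levels whose ranges overlapped between the genotypes. Ezh2 (chr6:47530139-47595341, GRCm38, minus strand) encodes the catalytic subunit with the stronger methyltransferase activity, and it was at 13.9, 14.4 and 11.6 scaled TPM in the WT mice and at 16.4, 13.7 and 12.9 in the Npc1-/- mice. The highest value was in Npc1-/- replicate 1 and the lowest in WT replicate 3. Its log2 fold change was 0.10 with a standard error of 0.13 (limma adjusted p = 0.7002), with a 95% interval of the fold from 0.871 to 1.32. The summed level of 12 proliferation genes was 69.3, 51.5 and 47.0 in WT and 83.9, 64.3 and 46.9 in Npc1-/-. Pcna, which varied little, was the largest part of it in every library, at 31.3, 32.6 and 33.1 in WT and 35.0, 34.2 and 37.0 in Npc1-/-. Top2a varied more, at 6.19, 2.58 and 1.32 in WT and 8.59, 4.56 and 1.00 in Npc1-/-. Mki67 was at 3.44, 1.42 and 0.770 in WT and 4.27, 2.02 and 0.674 in Npc1-/-. The sum, Top2a and Mki67 were likewise highest in Npc1-/- replicate 1, and the part of dividing cells in the Ezh2 level was not tested. Predicted genes (Gm26625 and Gm44282) lie on the other strand within Ezh2, and whether strand was used in counting is not given in the sources used here.

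**Figure D3:**
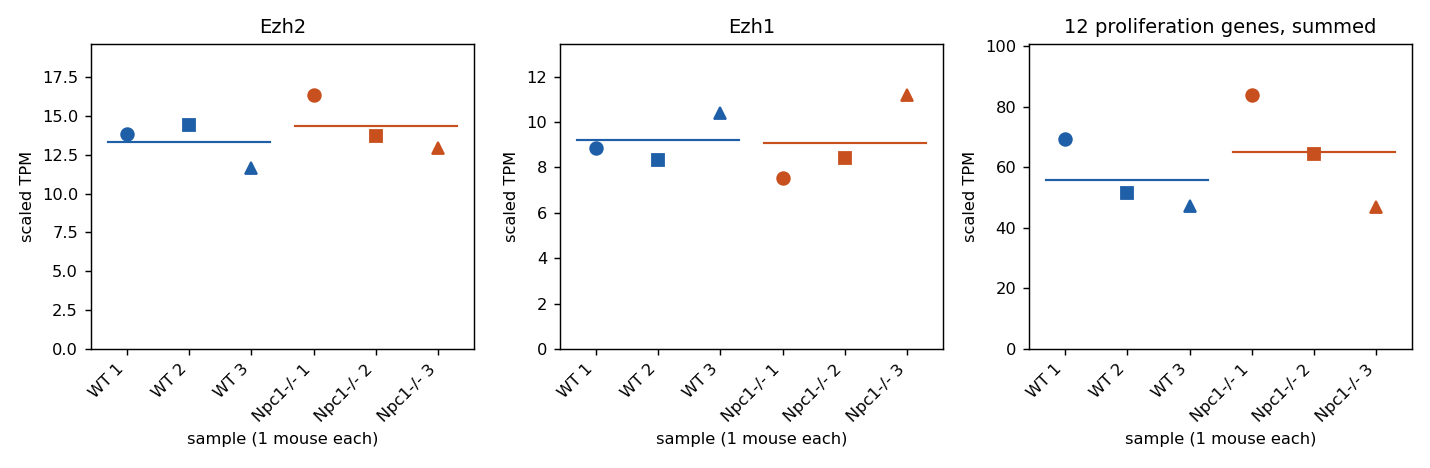
Scaled TPM of Ezh2, Ezh1 and the sum of 12 proliferation genes in each mouse (points, axes from 0), with the mean of each genotype as a horizontal line. Pcna is the largest part of that sum in every mouse. Npc1-/- replicate 1 was highest for Ezh2 and for the proliferation sum and lowest for Ezh1.

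Ezh1 (chr11:101191115-101226463, minus strand), the paralog that is retained in cells that have stopped dividing, was at 8.85, 8.34 and 10.4 in WT and at 7.55, 8.43 and 11.2 in Npc1-/-. The Npc1-/- mice spanned the whole WT range, and the log2 fold change was -0.03 with a standard error of 0.16 (limma adjusted p = 0.930). Ezh2 made up 59.1% ± 5.59 (SD, n = 3) of the summed EZH level in WT and 61.3% ± 7.45 in Npc1-/-. The log2 ratio of Ezh2 to Ezh1 was higher by 0.14 in Npc1-/- (exact permutation test, two-sided, p = 0.7, and 0.7 after adjustment over 10 paralog pairs).

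Eed, whose product binds the trimethylated mark and stimulates the enzyme, was at 9.11, 12.02 and 9.56 in WT and at 10.1, 8.36 and 9.88 in Npc1-/-. WT replicate 2 was the highest of all 6 and Npc1-/- replicate 2 the lowest, and the log2 fold change was -0.10 with a standard error of 0.13 (limma adjusted p = 0.707). Suz12, the scaffold of the complex, was at 8.30, 7.43 and 6.92 in WT and at 7.19, 5.88 and 6.496 in Npc1-/-. Only Npc1-/- replicate 1 reached into the WT range, and the log2 fold change was -0.20 with a standard error of 0.12 (limma adjusted p = 0.383), a 95% interval of the fold from 0.720 to 1.06. The histone-binding subunits Rbbp4 and Rbbp7 are shared with other chromatin complexes and were the most abundant of the core. Rbbp4 was at 29.3 ± 2.20 (SD, n = 3) in WT and 28.4 ± 3.36 in Npc1-/-, and the X-linked Rbbp7 at 35.5 ± 2.49 and 31.7 ± 2.81. For both the groups overlapped and neither was called (log2 fold changes -0.05 and -0.16). Without Npc1-/- replicate 3 the value for Rbbp7 was -0.11.

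The accessory subunits guide PRC2 to its sites or tune its activity. Aebp2, the most abundant of them, was at 24.3 ± 0.474 in WT and 22.0 ± 1.83 in Npc1-/-, and Jarid2, which recruits PRC2 in early differentiation, was at 10.1 ± 0.787 and 9.19 ± 1.15 (log2 fold change -0.14 for both). The Polycomb-like proteins bind unmethylated CG-rich DNA and are encoded by Mtf2, Phf1 and Phf19. Phf1 was at 10.2 ± 0.260 in WT and 8.53 ± 1.57 in Npc1-/- (log2 fold change -0.26, limma adjusted p = 0.315, or -0.40 and 0.12 without Npc1-/- replicate 3), and Mtf2 at 4.60 ± 0.356 and 4.81 ± 1.23. Epop, which links PRC2 to elongin, was at 3.78 ± 0.440 and 3.75 ± 0.359. Phf19, the lowest of the 33 genes by mean scaled TPM, was at 0.610, 0.298 and 0.501 in WT and at 0.681, 0.363 and 0.193 in Npc1-/-. This corresponds to about 10 to 48 fragments per library.

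The demethylase Kdm6a (chrX:18162575-18279936, plus strand), which has a partner on the Y chromosome, was at 8.25, 8.60 and 9.55 in WT and at 8.96, 7.90 and 12.7 in Npc1-/-. The highest value was in Npc1-/- replicate 3, the library with Xist and without Y-linked RNA, while Npc1-/- replicates 1 and 2 lay close to the WT mice. Kdm6a thus had a log2 fold change of 0.13 with a standard error of 0.17 (limma adjusted p = 0.718), and without that library it turned to -0.06 (adjusted p = 0.799). Uty, the Y-linked paralog, was at 3.90, 3.95 and 3.47 in WT and at 3.57, 2.85 and 0 in Npc1-/-. The sum of Kdm6a and Uty was 12.1, 12.5 and 13.0 in WT and 12.5, 10.7 and 12.7 in Npc1-/-, so on the summed level Npc1-/- replicate 3 lay within the WT range. Xist, the RNA that coats the inactive X chromosome of females, was at 0, 0 and 0.0096 in WT and at 0.0091, 0 and 21.4 in Npc1-/-. In the same library Eif2s3x, another X-linked gene with a partner on the Y chromosome, was at 80.3 scaled TPM, above its range of 44.7 to 52.4 in the other libraries, and Kdm5c was at 17.2, above a range of 15.2 to 16.5, whereas Ddx3x, at 69.8, was within a range of 44.8 to 70.5.

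Kdm6b (chr11:69398508-69413675, minus strand), the inducible autosomal H3K27 demethylase, was at 17.5, 16.9 and 14.0 in WT and at 15.6, 13.8 and 10.9 in Npc1-/-. Npc1-/- replicate 3 was the lowest of all mice and Npc1-/- replicate 1 lay within the WT range, so the groups overlapped. For Kdm6b the log2 fold change was -0.26 with a standard error of 0.15 (limma adjusted p = 0.372), a 95% interval of the fold from 0.651 to 1.07, and it was -0.13 without Npc1-/- replicate 3. An antisense gene, Kdm6bos, overlaps it. Kdm6b made up 64.5% ± 4.54 of the sum of Kdm6a and Kdm6b in WT and 57.8% ± 10.01 in Npc1-/-, and the log2 ratio of Kdm6b to Kdm6a was lower in Npc1-/- (difference -0.39, exact permutation test, two-sided, p = 0.4, adjusted 0.7).

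**Figure D4:**
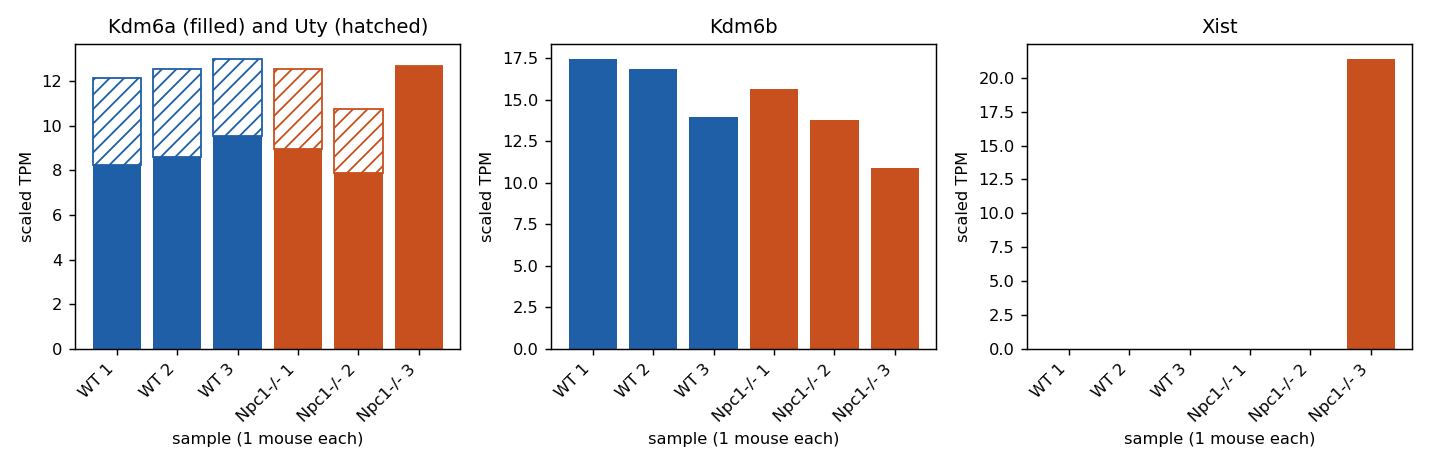
Scaled TPM in each mouse (bars, axes from 0) of Kdm6a with Uty stacked on it, of Kdm6b, and of Xist. Npc1-/- replicate 3 is the only library without Uty and the only one with Xist above 1 scaled TPM, and its Kdm6a bar reaches 12.7.

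Among the subunits of canonical PRC1, the polyhomeotic genes, whose products polymerise and bring PRC1 into clusters, were the most abundant. Phc2 was at 76.4 ± 3.11 scaled TPM in WT and 80.0 ± 1.51 in Npc1-/-, the highest level of the 33 genes, with a log2 fold change of 0.07 and a 95% interval of the fold from 0.923 to 1.19. Phc1 was at 48.4 ± 2.18 and 48.5 ± 3.55, with a log2 fold change of 0.00 and an interval from 0.866 to 1.16. Phc3 was the least abundant, at 7.70 ± 0.761 and 6.84 ± 0.433, and its share of the PHC sum was 5.81% ± 0.489 in WT and 5.05% ± 0.183 in Npc1-/-, with no overlap between the groups. The CBX proteins read H3K27me3. Cbx6 was at 41.9 ± 5.46 in WT and 41.8 ± 9.40 in Npc1-/-, and it made up 83.1% ± 1.91 and 85.5% ± 1.82 of the sum of Cbx2, Cbx6, Cbx7 and Cbx8. Npcd overlaps Cbx6 on the same strand. Cbx7 was at 3.84 ± 1.41 and 2.94 ± 1.36, Cbx8 at 3.55 ± 1.15 and 2.98 ± 0.625, and Cbx2 at 1.13 ± 0.322 and 1.02 ± 0.344. These low members varied by 21.01% to 46.4% between mice of a genotype, and their log2 fold changes were -0.36, -0.20 and -0.11, with overlapping groups. For Cbx7 the log2 fold change was -0.67 without Npc1-/- replicate 3 (limma adjusted p = 0.23) and ran from -0.67 to -0.11 with 1 mouse left out.

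The PCGF and RING genes held both extremes of the comparison. Ring1 (chr17:34020792-34024680, minus strand), 1 of the pair of E3 ligases for histone H2A, was at 14.9, 14.5 and 13.3 in WT and at 19.2, 16.8 and 25.3 in Npc1-/-. All 3 Npc1-/- mice were above all WT mice, as for 13.3% of all genes tested, and the highest value was in Npc1-/- replicate 3. Ring1 had a log2 fold change of 0.49 with a standard error of 0.15 (limma unadjusted p = 0.0144, adjusted p = 0.121), a 95% interval of the fold from 1.09 to 1.80. Without Npc1-/- replicate 3 the log2 fold change was 0.32 (adjusted p = 0.155). No annotated gene overlaps Ring1.

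Rnf2 (chr1:151458004-151500955, minus strand), the other ligase and the more active of the pair, was at 12.3, 14.6 and 14.2 in WT and at 12.6, 11.03 and 9.01 in Npc1-/-. Npc1-/- replicate 1 lay above the lowest WT mouse, so the groups overlapped, and Npc1-/- replicate 3 was the lowest. Rnf2 had a log2 fold change of -0.33 with a standard error of 0.14 (limma unadjusted p = 0.0511, adjusted p = 0.228), and it was -0.21 without Npc1-/- replicate 3. Trmt1l on the other strand and Gm36527 on the same strand overlap Rnf2. Ring1 made up 54.9%, 49.9% and 48.3% of the summed RING level in the WT mice and 60.4%, 60.4% and 73.7% in the Npc1-/- mice. The mean share was 51.0% ± 3.41 in WT and 64.8% ± 7.71 in Npc1-/-, with no overlap. The log2 ratio of Rnf2 to Ring1 was lower in all 3 Npc1-/- mice than in any WT mouse (difference -0.81, from -0.96 to -0.53 with 1 mouse left out), with an exact two-sided permutation p of 0.1, the smallest that 3 against 3 allows, and 0.5 after adjustment over 10 pairs.

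Pcgf5 (chr19:36348309-36460970, plus strand), the PCGF subunit of a variant PRC1 that also contains RYBP or YAF2, was at 6.21, 8.07 and 6.88 in WT and at 4.91, 3.86 and 4.71 in Npc1-/-. All 3 Npc1-/- mice were below all WT mice, as for 14.2% of all genes tested. The log2 fold change was -0.60 with a standard error of 0.14 (limma unadjusted p = 0.00349, adjusted p = 0.0714), a 95% interval of the fold from 0.527 to 0.831. With 1 mouse left out it ran from -0.68 to -0.50. On the deposited TPM without size factors Pcgf5 passed the threshold (log2 fold change -0.94, adjusted p = 0.0447), where 6.06% of all genes were called, 5.71% as lower, and the median of all genes was -0.33, so relative to that median it was -0.61. The summed microglial, endothelial and mural markers given above were lower in Npc1-/- as well, and their part in the Pcgf5 level was not tested. Genes on both strands overlap Pcgf5 (F530104D19Rik and Gm23170 on the other strand, Gm47773 and Gm9042 on the same one).

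Pcgf3, the closest paralog of Pcgf5, was at 11.3, 11.5 and 11.5 in WT and at 11.2, 10.7 and 10.6 in Npc1-/-. These groups did not overlap either, but the log2 fold change was only -0.07 with a standard error of 0.082 (limma adjusted p = 0.657), since the mice of a genotype varied by 1.22% and 2.79%. The log2 ratio of Pcgf3 to Pcgf5 was higher by 0.52 in Npc1-/- without overlap (exact permutation p = 0.1, adjusted 0.5). Bmi1, the PCGF subunit best known from stem cell renewal, was the most abundant at 15.6 ± 1.40 and 15.2 ± 1.53, and Pcgf2, the other PCGF subunit of canonical PRC1, was at 5.13 ± 1.32 and 5.56 ± 1.21. Pcgf1, the subunit that pairs with BCOR and KDM2B, was at 3.78 ± 0.149 and 4.24 ± 0.805, and Pcgf6, a subunit of an E2F6-containing PRC1, at 3.26 ± 0.155 and 3.82 ± 0.582. As a share of the 6 PCGF genes, Pcgf5 was 15.2% ± 1.99 in WT and 10.2% ± 1.05 in Npc1-/-. Pcgf1 was 8.17% ± 0.363 and 9.54% ± 0.999, and Pcgf6 was 7.05% ± 0.313 and 8.68% ± 1.44. None of these 3 shares overlapped between the genotypes, as for 6 of the 26 shares computed over all families (23.1%, against 27.5% of all genes for levels), and because the shares of a family add up to 100% a lower share of 1 gene raises those of the others.

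**Figure D5:**
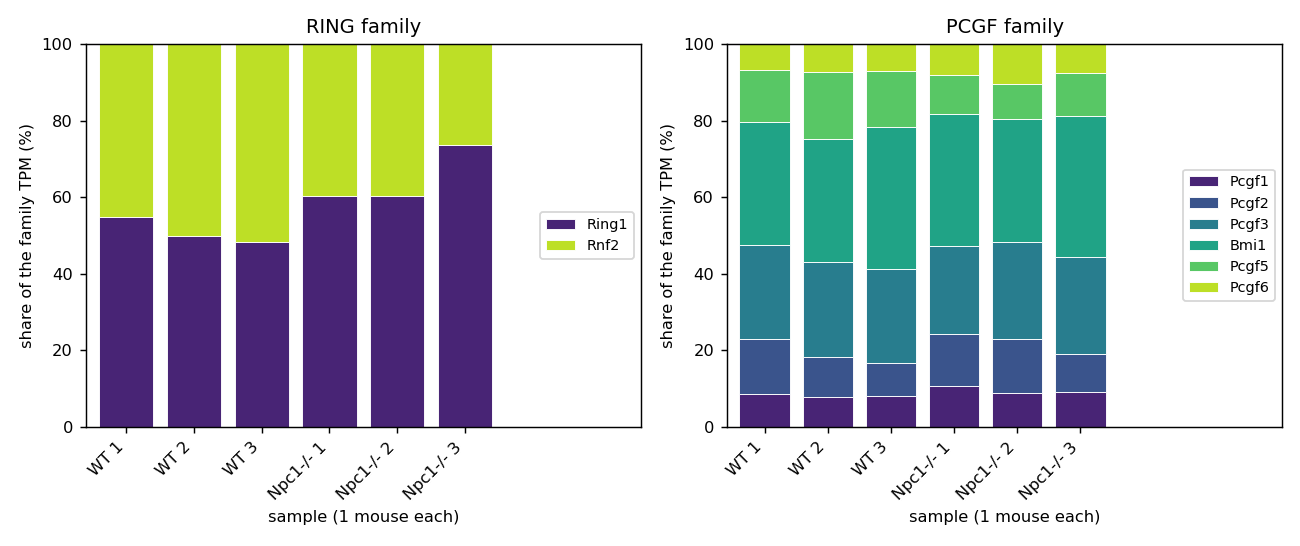
Share of the summed TPM of the RING family (Ring1, Rnf2) and of the PCGF family (6 genes) taken by each gene in each mouse, stacked to 100%. Ring1 took 48.3% to 54.9% in WT and 60.4% to 73.7% in Npc1-/-, and Pcgf5 took 13.5% to 17.4% and 9.14% to 11.2%.

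The variant PRC1 subunits were led by Yaf2, at 41.6 ± 4.29 in WT and 43.7 ± 6.44 in Npc1-/- (log2 fold change 0.07). Rybp, its paralog, which takes the place of a CBX protein in variant PRC1, was at 17.0, 17.7 and 14.99 in WT and at 14.9, 13.3 and 14.1 in Npc1-/-. The highest Npc1-/- value lay just under the lowest WT value, and the log2 fold change was -0.22 with a standard error of 0.099 (limma adjusted p = 0.242). The log2 ratio of Yaf2 to Rybp was higher by 0.29 in Npc1-/-, with overlapping groups (exact permutation p = 0.3, adjusted 0.7). Kdm2b, which brings PCGF1-containing PRC1 to unmethylated CG-rich DNA, was at 8.07 ± 1.38 and 7.79 ± 1.36. The X-linked Bcor, a scaffold of the same complex, was at 6.27 ± 0.630 and 5.54 ± 1.29 (log2 fold change -0.18), and without Npc1-/- replicate 3 its log2 fold change was -0.01.

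Of 10 paralog pairs compared by the log2 ratio within each mouse, the Rnf2 to Ring1 and the Pcgf3 to Pcgf5 ratios did not overlap between the genotypes and the other 8 did, so 2 of 10 did not overlap, against 27.5% of all genes for levels. For those 8 the exact permutation p was between 0.3 and 0.7, and none of the 10 passed after adjustment. The differences among the 8 ran from -0.39 for Kdm6b to Kdm6a up to 0.30 for Mtf2 to Phf1. The smallest in size was that of Phc2 to Phc1, at 0.06.

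A further list of 48 genes held partners of Polycomb, genes that act on H3K27, and H3K4 and H3K36 methyltransferases with their partners. Of these, 45 were tested and none was called (limma adjusted p below 0.05, against 0.813% of all genes). The log2 fold change was below 0 for 32 of the 45, with a median of -0.09. Before adjustment, 4 genes had a p below 0.05, all lower in Npc1-/-, against 11.6% of all genes tested in that direction. The lowest p was that of Lcor, a partner of PRC2 in some of its forms, at 3.33, 3.42 and 3.24 in WT and 2.61, 2.11 and 2.31 in Npc1-/-, with no overlap (log2 fold change -0.43, standard error 0.12, limma adjusted p = 0.102). The others were Foxk1, which binds the BAP1 deubiquitylase, Kmt2a, an H3K4 methyltransferase that opposes Polycomb, and Setd2, the H3K36 methyltransferase whose mark hinders PRC2, with log2 fold changes of -0.35, -0.32 and -0.33. These 3 were named after their values were seen.

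Textbook targets of Polycomb were mostly silent in both genotypes, so they give little room for a comparison: of 20 such genes 3 passed the filter on low values, and 2 (Hoxd10 and Nkx2-5) were listed at 0 in every library. Of the 3 tested, none was called, and all had a log2 fold change below 0. Alternatives changed that call for Sox17 and Cdkn2b. Sox17, a transcription factor of oligodendrocyte progenitors and of blood vessel endothelium, was at 53.2, 62.5 and 62.0 in WT and at 31.3, 38.2 and 46.6 in Npc1-/- (log2 fold change -0.62, limma adjusted p = 0.0778). It passed without Npc1-/- replicate 3 (-0.77, adjusted p = 0.0418) and on the deposited TPM (-0.99, adjusted p = 0.0115). The 7 endothelial and mural genes were lower in the same mice, and their part in the Sox17 level was not tested. Cdkn2b, a cell cycle inhibitor at a classic Polycomb locus, was at 4.34, 2.88 and 4.95 in WT and 1.09, 2.33 and 1.87 in Npc1-/- (log2 fold change -1.02, limma adjusted p = 0.0850), and it passed on the deposited TPM (-1.34, adjusted p = 0.0206). Both genes were lower in all 3 Npc1-/- mice than in any WT mouse, as for 14.2% of all genes tested, and they were named after their values were seen. Of the 17 targets under the filter, 1 was above WT without overlap (Hoxa7) and 1 below it (Neurog2), both named after their values were seen. Among the genes tested, which lie above the filter, 13.3% were above WT and 14.2% below it without overlap. These counts therefore do not set the low targets apart. Hoxa7 was at 0.0386, 0.298 and 0.453 in WT and at 0.554, 1.03 and 0.592 in Npc1-/-, and Neurog2 at 0.247, 0.217 and 0.183 and at 0.136, 0.117 and 0.138.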

How the data were processed

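Poly(A) RNA of O4+ cells from 3 WT and 3 Npc1-/- mice was sequenced as paired ends. The authors deposited TPM, abundance per transcript length relative to the sample total, and FPKM, fragments per kilobase relative to library size, each with 2 decimals. The paper's methods name bbduk, STAR, GRCm38, featureCounts and DESeq2, whereas the submitters' processing notes name cutadapt 2.3, FastQC 0.11.8, STAR 2.7.8a, RSEM 1.3.3 and MultiQC 1.7. Which of these made the TPM and FPKM values, and whether strand was used, is not given in the sources used here.

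TPM was divided by median-of-ratios size factors (18690 genes above 0 in every sample), 0.5 was added and log2 taken, so fold changes of low genes are understated. The 15245 genes with a mean of at least 0.5 TPM entered lmFit and eBayes with trend (limma 3.58.1, R 4.3.3), with genotype only. A gene was called where the Benjamini-Hochberg adjusted p was under 0.05 and the log2 fold change was 0.1 or more in size. The script was tested on simulated data. Log2 ratios of 10 paralog pairs were compared by exact two-sided permutation (20 arrangements). Depth was inferred from FPKM steps in genes with 1 transcript, where 81.4% to 85.1% of low values were close to whole fragments (30% would be by chance). No count test was run. GENCODE M21 (GRCm38) gave positions for 55227 genes, and promoter sequences are RefSeq, GRCm38.p6. Python 3.11.15, numpy 2.4.6, pandas 2.3.3 and matplotlib 3.10.9 were used.

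The 33 genes, the other lists and the tests were chosen with earlier results of these data known. Values of every mouse are given for Ezh1, Ezh2, Eed, Suz12, Kdm6a and Kdm6b and for genes with an unadjusted p below 0.05. They are also given for Rnf2, Rybp, Pcgf3 and Phf19, which were added after their values were seen. Of the further list of 48 genes, those called or with an unadjusted p below 0.01 and Uty were named by rule. The sex-linked genes Ddx3x, Kdm5c, Eif2s3x, Ddx3y, Kdm5d and Eif2s3y were added later. Alternatives were other scalings, pseudocounts and filters, limma without trend, a curve on transcript length, the replicate number as a block and each mouse left out.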

Additional observations from a re-analysis of the deposited data

How the results depend on the processing

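None of the 32 genes was called under any alternative but TPM as deposited, where 1 was (Pcgf5, log2 fold change -0.94). None of the further list of 48 genes was called under any. The number called over all genes moved from 124 to 924 on TPM as deposited, of which 870 were lower, against 63 of 124. It was 239 after quantile normalization, 21 without a filter, 447 at a mean TPM of at least 5, 42 without trend and 5 to 477 with 1 mouse left out (477 without Npc1-/- replicate 3).

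The labels number the mice 1 to 3 in both genotypes. Same-number deviations correlated at 0.414, 0.060 and 0.326, and all 6 samples correlated best with their own number. The labels do not call the numbers pairs, so the main fit did not take them as such, and whether they are pairs is not settled. With the replicate block 2011 of 15245 genes (13.2%) were called, 1143 higher and 868 lower, and 1944 with the length curve as well. Those called lower included Sox17 (limma with block, adjusted p = 0.0212), 2 microglial, 6 endothelial and mural and 2 astrocyte genes. Those called higher included 3 oligodendrocyte genes (Mag, Mobp and Bcas1), 3 neuronal genes and 1 astrocyte gene (Gfap). No member was called with the block, the smallest adjusted p being 0.058 for Pcgf5. Next were Ring1 (limma with block, adjusted p = 0.0885, higher in Npc1-/-) and Kdm6b (0.0924, lower). Kdm6b was lower in the Npc1-/- mouse than in the WT mouse of the same number for every number. The same held for Suz12, Rbbp7, Aebp2, Phf1, Cbx2, Cbx7, Phc3, Pcgf3, Pcgf5, Rybp and Bcor, so it does not set Kdm6b apart. The share over all genes was not computed.

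Directions turned for members with small differences. On TPM as deposited, where the median of all genes was -0.33, the log2 fold change was -0.26 for Ezh2, -0.30 for Mtf2, Phc2 and Yaf2, -0.22 for Kdm6a, -0.37 for Phc1, -0.19 for Pcgf1, -0.23 for Pcgf2 and -0.13 for Pcgf6. After quantile normalization it was 0.0097 for Ezh1, 0.046 for Epop, -0.073 for Phc1 and -0.037 for Phc2, and with the length curve removed, with or without the replicate block, 0.016 for Rbbp4 and 0.045 for Epop. With 1 mouse left out it ran from -0.10 to 0.037 for Bmi1, -0.28 to 0.026 for Cbx2, -0.19 to 0.12 for Cbx6, -0.34 to 0.019 for Cbx8, -0.18 to 0.0096 for Eed, -0.095 to 0.063 for Epop, -0.19 to 0.083 for Ezh1, -0.18 to 0.063 for Kdm2b, -0.062 to 0.27 for Kdm6a, -0.12 to 0.21 for Mtf2, -0.046 to 0.29 for Pcgf2, -0.047 to 0.061 for Phc1, -0.11 to 0.048 for Rbbp4 and -0.056 to 0.13 for Yaf2. The difference in log2 ratio ran from -0.36 to 0.076 for Bmi1 to Pcgf2, -0.69 to 0.16 for Cbx7 to Cbx2 and -0.076 to 0.36 for Ezh2 to Ezh1. The cause was not tested. Over genes, the log2 fold change and transcript length had a Spearman rho of -0.214. Whether replicates came from separate litters is not given in the sources used here.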
